A study of Mus musculus with 2 samples.

Results

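The collagen genes of the mouse are examined here for H3K27me3, histone H3 trimethylated at lysine 27, in MEL cells. They were taken as the protein-coding genes of GENCODE whose symbols begin with Col, a number, a and a further digit. Of 21911 protein-coding genes, 45 matched this pattern. One of these, Col4a3bp, encodes a ceramide transfer protein and no collagen, so it is given apart and 44 collagen genes are described. Of these, 11 encode fibrillar collagens and 33 encode other collagens.

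MEL is an immortalized mouse erythroleukaemia line, labelled as the analog of human K562 cells, and the labels name no treatment or modification. Chromatin was precipitated with an antibody to H3K27me3 and sequenced in 2 biological replicates, which form the single group of the series. Nothing states whether they came from separate cultures. The authors deposited 4 peak lists on mm10, namely 1 for each replicate, 1 pooled over both, and a replicated list that is a subset of the pooled one. The replicated list is meant below unless another is named.

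A collagen molecule is a triple helix of 3 alpha chains, each the product of a Col gene. Fibrillar collagens assemble into the fibres of bone, cartilage, skin and tendon, network collagens form the sheets of basement membranes, and FACIT collagens attach to the surface of fibrils. Most are made by fibroblasts, chondrocytes and other cells of solid tissue, not by erythroid cells. H3K27me3 is laid down by Polycomb repressive complex 2 and is known for broad domains over silent developmental genes. The peaks here are narrow, and a base outside a peak was not shown to lack the mark. RNA was not measured, and nothing below speaks of whether a gene was transcribed.

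The lists held 70901 peaks in replicate 1, 106995 in replicate 2, 69721 in the pooled list and 38298 in the replicated list on chromosomes 1 to 19, X and Y. They covered 16.1, 23.9, 19.1 and 13.0 Mb. Read depth is unknown, so no value has a counting interval, and the spread given is that between the 2 replicates' own lists. Most peaks were weak by the authors' own statistics, with 10.9% of replicated peaks at a −log10 q of 2 or more. Of 14 erythroid marker genes, 1 was marked at its start (1 kb on either side), Slc4a1, the anion exchanger of red cells, with 410 bp covered, beside 3.0% of all genes. Among 7 fibroblast marker genes none had one, and 1, Pdgfra, had a peak in its body over 2.5% of its length, beside 11.5% of all genes with a body peak. The marks of these genes say nothing of their RNA, so they do not test the identity of the line.

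Few collagen starts carried a peak. Within 1 kb on either side of the gene start, 2 of 44 genes (4.55%) had a replicated peak, beside 3.0% of all 21911 protein-coding genes. The same 2 genes had one in each of the other 3 lists, where the shares over all genes were 4.46% in replicate 1, 6.28% in replicate 2 and 4.48% in the pooled list. The share in the collagens was thus near that of all genes. Both genes encode the chains of type I collagen, the main protein of bone and skin.

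Col1a1 lies at chr11:94936224-94953042 on the plus strand and encodes the alpha 1 chain. Peaks covered 363 bp of its start window in replicate 1, 547 bp in replicate 2 and 380 bp in the replicated list. All these bases lay upstream of the start, and the nearest edge of a replicated peak was 197 bp away from it. The gene body held no base of a replicated peak and none in replicate 1, while replicate 2 covered 386 bp of it.

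Col1a2 lies at chr6:4504814-4541544 on the plus strand and encodes the alpha 2 chain of the same molecule. Of its start window, 39 bp were covered in replicate 1, 163 bp in replicate 2 and 39 bp in the replicated list, with the nearest peak edge 962 bp upstream. This call hangs on the gene model. The outermost start belongs to transcript Col1a2-205, and the next annotated start lies 679 bp further downstream, where the window held no peak in any list. With RefSeq gene starts, an alternative chosen after the data were seen, Col1a1 was the single collagen gene with a replicated start peak.

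The 250 bases before a gene's RefSeq start were looked up for the members with a replicated peak nearest to the start. The RefSeq promoter table for GRCm38.p6 held 35 of the 44 genes. Col1a2 and Col5a3 are shown, as the collagen genes in that table whose starts lie closest to a replicated peak on either side. The distances were 962 and 4188 bp. Exonic bases of any transcript were left out, so 123 bases at chr6:4505370-4505492 (plus strand) and 200 bases at chr9:20815118-20815317 (minus strand) remained. The Col1a2 stretch is intronic in Col1a2-205 and ends just before the next annotated start. Both are written 5′ to 3′ on the gene's strand with each CG dinucleotide in capitals, since CpG-rich promoters are the usual landing sites of Polycomb complexes.
Col1a2: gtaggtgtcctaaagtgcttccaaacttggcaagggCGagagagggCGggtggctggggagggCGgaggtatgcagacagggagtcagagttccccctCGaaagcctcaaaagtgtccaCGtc
Col5a3: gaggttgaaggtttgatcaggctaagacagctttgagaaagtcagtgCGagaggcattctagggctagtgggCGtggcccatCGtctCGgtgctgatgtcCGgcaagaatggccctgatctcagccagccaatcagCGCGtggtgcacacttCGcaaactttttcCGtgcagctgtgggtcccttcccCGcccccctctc
The Col1a2 stretch held 5 CG dinucleotides and 59.3% G or C, and the Col5a3 stretch held 10 and 58%. Neither stretch overlapped a replicated peak.

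Over whole promoter windows of 300 bases, the 38 windows of collagen genes held between 0 and 37 CG dinucleotides, with a median of 11.5. The median of all 32851 RefSeq windows of that length was 7. Windows of collagens with a replicated body peak had a median of 13 (13 windows of 12 genes), and those without had 10 (25 windows of 23 genes). The windows ranged widely inside each set, and Col28a1, whose body was marked, held 0. The letters CCAAT, read on both strands, occurred in 13 of the 38 windows (34.2%) and in 37.4% of all windows. TATAAA occurred in 5 (13.2%), beside 13.6% of all. A match to these letters is a description and no binding site.

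The kilobase just downstream of the start was without a peak in all 44 genes in all 4 lists. Few of all genes had one there either, namely 2.75% in replicate 1, 4.02% in replicate 2, 2.87% in the pooled list and 1.92% in the replicated list. The absence in 44 genes is thus near these low shares. From 1 to 5 kb downstream, 1 of 44 collagen genes had a replicated peak, Col1a2, beside 5.2% of all genes. Upstream the picture differed between the classes. From 1 to 5 kb upstream, 4 of 11 fibrillar genes and 1 of 33 other genes had a replicated peak, beside 6.72% of all genes. The bases covered were 10.98% and 0.181%, beside 1.08% over all genes. Within 5 kb on either side, 36.4% of fibrillar genes, 3.03% of other collagens and 10.4% of all genes had one. The 4 fibrillar genes were Col1a1, Col1a2, Col2a1 and Col5a3, and the other gene was Col26a1, with its nearest peak edge 3239 bp from its start.

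**Figure D1:**
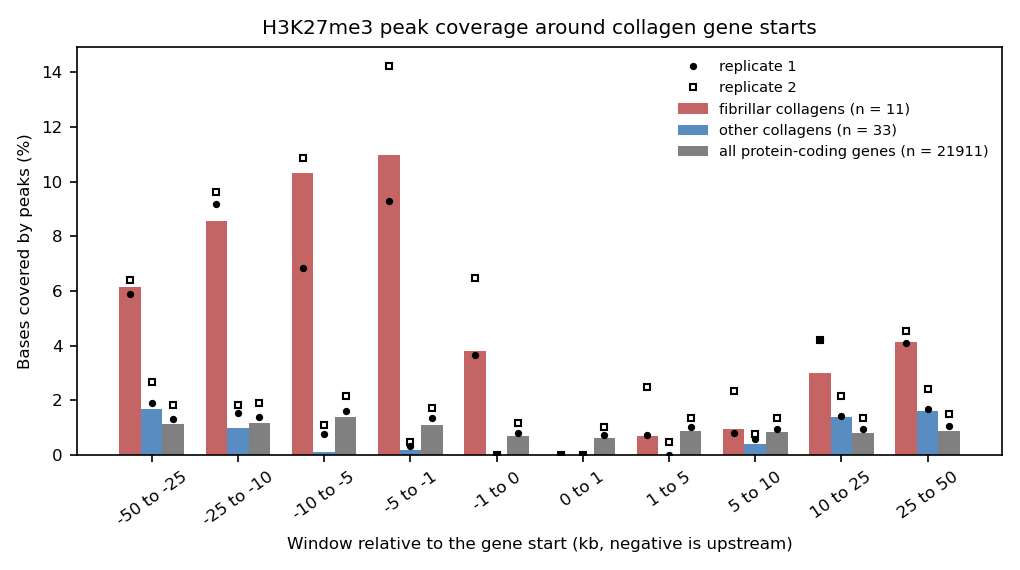
Share of bases covered by peaks (y axis, %) in windows around the gene start (x axis, kb, negative upstream) for fibrillar collagens, other collagens and all protein-coding genes. Bars are the replicated list and symbols the 2 replicates' own lists. The fibrillar bars reach 10.98% at 1 to 5 kb upstream. In the kilobase after the start both collagen classes are at 0, and all genes are at 0.617% in the replicated list.

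Over the 50 kb upstream of the start, fibrillar genes had a mean of 7.62% of bases covered, with 7.2% in replicate 1 and 8.43% in replicate 2. Other collagens had 1.17%, with 1.51% and 2.02% in the replicates, and all genes had 1.15%. The gap between the classes, 6.45 percentage points, was seen first in these data and then measured on them, so it describes these genes and was not tested. The mean rests on part of the class. The median of the 11 fibrillar genes was 0.35%, and 5 of them had 0 bases covered upstream, as had 21 of the 33 others and 70.3% of all genes. A difference between the classes was not confined to the upstream side. In the 50 kb after the gene end, the mean was 4.57% in fibrillar genes, 1.19% in other collagens and 0.915% in all genes. Fibrillar and other genes had 4.93% and 1.19% there in replicate 1, and 4.98% and 1.59% in replicate 2. Without Col1a2 the fibrillar mean after the end was 2.96% in the replicated list.

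Col1a1 had the largest upstream share. It was 26.9% in replicate 1, 32.7% in replicate 2 and 27.7% in the replicated list, above 99.8% of all genes. Joining replicated peaks no more than 3 kb apart gave a domain of 23748 bp, from -49771 to -26024 bp relative to the start, of which 52.5% was covered. Its strongest peak, at chr11:94900792-94902505, was 1714 bp wide with a −log10 p of 12.6, and 6 of the 29 upstream peaks reached a −log10 q of 2. A further domain of 7261 bp lay 25781 to 33041 bp after the start, past the end of the gene. It ran over Hils1, a spermatid linker histone gene with 95.6% of its body covered, and into Sgca, the gene of the muscle protein alpha-sarcoglycan, with 30.7%. Chromosome 11 carried more peaks than the others, and all its genes had a mean of 3.08% upstream. Without it, the fibrillar mean was 5.61% and that of other collagens 1.17%.

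Col5a3 (chr9:20770050-20815067, minus strand) encodes a chain of type V collagen, which sits inside fibrils of type I. The 50 kb upstream of it were covered to 19% in replicate 1, 23.3% in replicate 2 and 21.4% in the replicated list. One domain of 19629 bp, from -23816 to -4188 bp relative to the start, held most of these bases. Its part nearest to Col5a3 overlaps Rdh8, a neighbouring gene for a retinol dehydrogenase of photoreceptors, which lies from -11050 to -3436 bp. The rest of the domain lies further upstream. The Rdh8 body was covered to 56.2%, and the Rdh8 start held 249 bp of peaks. Of the 22 peaks upstream of Col5a3, 5 reached a −log10 q of 2.

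Col2a1 (chr15:97975602-98004695, minus strand) encodes the collagen of cartilage. Its upstream share was 18.7% in replicate 1, 20.5% in replicate 2 and 20.7% in the replicated list. The peaks formed 1 domain of 6368 bp, from -8549 to -2182 bp relative to the start, and another of 13563 bp, from -26692 to -13130 bp, covered to 52.7% and 51.5%. The strongest peak, at chr15:98026935-98028718, was 1784 bp wide with a −log10 p of 13.2. In contrast, the Col2a1 body was almost bare, with 0.492% covered in replicate 1, 1.00% in replicate 2 and 0 in the replicated list.

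Col1a2 and Col5a1 were covered less densely. Col1a2 had 6.23% and 6.66% upstream in the replicates and 7.19% in the replicated list, and 22.0%, 22.4% and 20.6% in the 50 kb after its end. None of its 9 upstream peaks reached a −log10 q of 2. Col5a1, which encodes the major chain of type V collagen, had 7.74%, 7.81% and 6.44% upstream. Part of this lay in a domain of 6382 bp that ended 9787 bp before the start and was covered to 31.0%, and the rest in peaks further away.

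The remaining fibrillar genes carried little in the replicated list. Col3a1 and Col5a2 encode the chains of types III and V that accompany type I, and they share 1 cluster on chromosome 1. Neither had a base of a replicated peak in its body or within 50 kb. Replicate 1 alone covered 0.367% of the Col3a1 body, and replicate 2 alone 0.734% of that of Col5a2. Col11a1 and Col11a2, chains of the type XI collagen of cartilage, and Col27a1 had 0 in the body in all 4 lists. Col24a1 had 0.136% of its body covered in replicate 1, 1.01% in replicate 2 and 0.0620%, a single peak of 161 bp, in the replicated list, so its value hung on the list used.

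**Figure D2:**
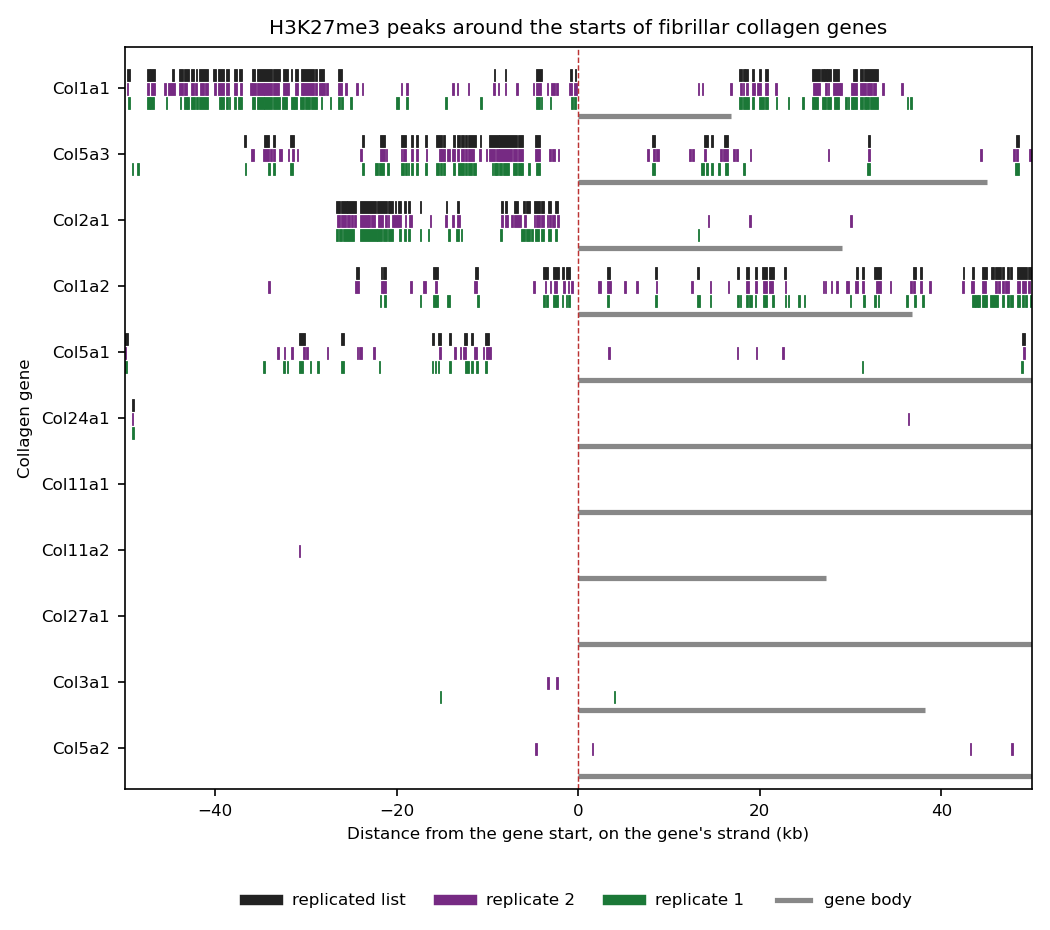
Peaks of replicate 1, replicate 2 and the replicated list (coloured ticks) within 50 kb of the start of each of the 11 fibrillar collagen genes (rows). The x axis is the distance from the start in kb on the gene's strand, and the grey line is the gene body. Dense runs of peaks lie upstream of Col1a1, Col5a3 and Col2a1 in both replicates, and the 5 rows at the bottom hold no replicated peak.

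In the gene bodies, 13 of 44 collagen genes (29.5%) had a replicated peak, beside 11.5% of all genes. The counts were 21 in replicate 1, 28 in replicate 2 and 19 in the pooled list, where 16.4%, 20.4% and 15.0% of all genes had one. Collagen genes are long, with a median of 114388 bp beside 17433 bp over all genes, and a longer gene has more room for a peak. Among genes of 100 to 200 kb, 6 of 18 collagens (33.3%) and 21.8% of all genes were marked. From 200 kb upward the counts were 3 of 8 (37.5%) and 24.0%, and from 20 to 50 kb 2 of 11 (18.2%) and 13.3%. The collagen share was the higher in each length band, by counts of 1 to 6 genes. By bases this did not hold for the longest genes, since collagens of 200 kb or more were covered to 0.0871% and all such genes to 0.281%.

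By bases the difference was smaller. Replicated peaks covered 0.644% of the summed collagen bodies and 0.524% of those of all genes. In replicate 1 the values were 0.852% and 0.633%, and in replicate 2 they were 1.39% and 0.943%. The collagen value was the higher in each of these lists, and both values were higher in the list of replicate 2, which holds more peaks. The median collagen gene had 0% covered. A body peak was present in both replicates in 20 genes, in replicate 1 only in Col3a1, in replicate 2 only in 8 genes, and in no list in 15. Over all genes the shares were 14.8% in both, 1.57% in replicate 1 only, 5.53% in replicate 2 only and 78.0% in no list.

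The 8 genes marked in replicate 2 only were Col14a1, Col15a1, Col1a1, Col4a5, Col5a2, Col6a2, Col6a4 and Col7a1. The 15 genes without a body peak in any list were Col4a1, Col6a1, Col6a3, Col6a5, Col6a6, Col8a2, Col9a1, Col10a1, Col11a1, Col11a2, Col13a1, Col19a1, Col22a1, Col25a1 and Col27a1. In 7 genes both replicates had a body peak and the replicated list had none, as in 3.8% of all genes. They were Col2a1, Col4a2, Col9a3, Col12a1, Col17a1, Col20a1 and Col26a1. For 10 genes no list had a peak in the body or within 50 kb of either end, beside 32.0% of all genes.

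A few genes held most of the covered bases. Col4a3, Col8a1 and Col28a1 accounted for 61.9% of the 34573 bp covered in all collagen bodies, and with Col1a2 for 73.5%. Without Col4a3, Col8a1 and Col28a1, the non-fibrillar collagens were covered to 0.183%, with 0.310% in replicate 1 and 0.647% in replicate 2.

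Among the classes with 4 or more genes, network collagens were the most heavily covered, at 1.55% of their summed bodies, with 4 of 9 genes marked. Over all genes, 0.524% of the summed bodies was covered and 11.5% of genes were marked. The network genes had a median length of 135139 bp, and 21.8% of all genes of 100 to 200 kb were marked. Col4a3 (chr1:82586921-82722059, plus strand) and Col4a4 (chr1:82448423-82586849, minus strand) encode chains of the basement membrane of the kidney glomerulus. Of the Col4a3 body, 6.44% was covered in replicate 1, 6.36% in replicate 2 and 5.90% in the replicated list. Col4a4 had 1.83%, 2.40% and 1.52%. The genes point away from each other, with starts 72 bp apart, and the shared start region was bare. The nearest replicated peaks lay 10983 bp into Col4a3 and 17237 bp into Col4a4. Within Col4a3, a domain of 7378 bp from 26204 to 33581 bp after the start was covered to 59.4%.

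The other paired type IV genes, arranged in the same way, carried little in the replicated list. Col4a1 and Col4a2, which encode the ubiquitous chains of basement membranes, have starts 21 bp apart and had 0 replicated bases in either body. Replicate 2 covered 0.452% of Col4a2. Col4a5 and Col4a6 have starts 1309 bp apart on the X chromosome. Col4a5 had 0 in replicate 1 and in the replicated list and 0.0804% in replicate 2. Col4a6 had 0.739% in replicate 1, 1.61% in replicate 2 and 0.366% in the replicated list. Of 30 annotated protein-coding transcript starts more than 1 kb downstream of the outermost start of a collagen gene, 1 had a replicated peak within 1 kb. The share of such starts over all genes was not measured, so this count has no background beside it. The 30 starts include the only protein-coding starts of Col25a1 and Col27a1, 49390 and 1431 bp from the outermost start. The marked start was that of Col4a3-204, 128383 bp into the gene. It had 631 bp covered in replicate 1, 712 bp in replicate 2 and 486 bp in the replicated list.

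Col8a1 (chr16:57624258-57754737, minus strand) encodes a chain of the hexagonal network under the corneal endothelium and in vessel walls. Its body was covered to 8.10% in replicate 1, 13.1% in replicate 2 and 5.82% in the replicated list, a wide spread between replicates. The 3 longest joined stretches of its peaks were 6823 to 10217 bp, each covered to between 20.6% and 25.4%, and 1 of them ran past the end of the gene. Its partner Col8a2 had 0 in each list. Col10a1, the collagen of hypertrophic cartilage, also had 0.

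Col28a1 (chr6:7997808-8192617, minus strand) encodes a beaded collagen found around nerves. Its body was covered to 3.46%, 4.69% and 3.0% in replicate 1, replicate 2 and the replicated list. The peaks of the replicated list sat near both ends. With the body cut into 10 equal bins, bins 3 to 8 held none in that list, bin 2 was covered to 10.5% and bin 10 to 13.9%. The replicates' own lists did hold peaks in between, with 2.05% of bin 4 covered in replicate 1 and 6.70% of bin 6 in replicate 2.

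**Figure D3:**
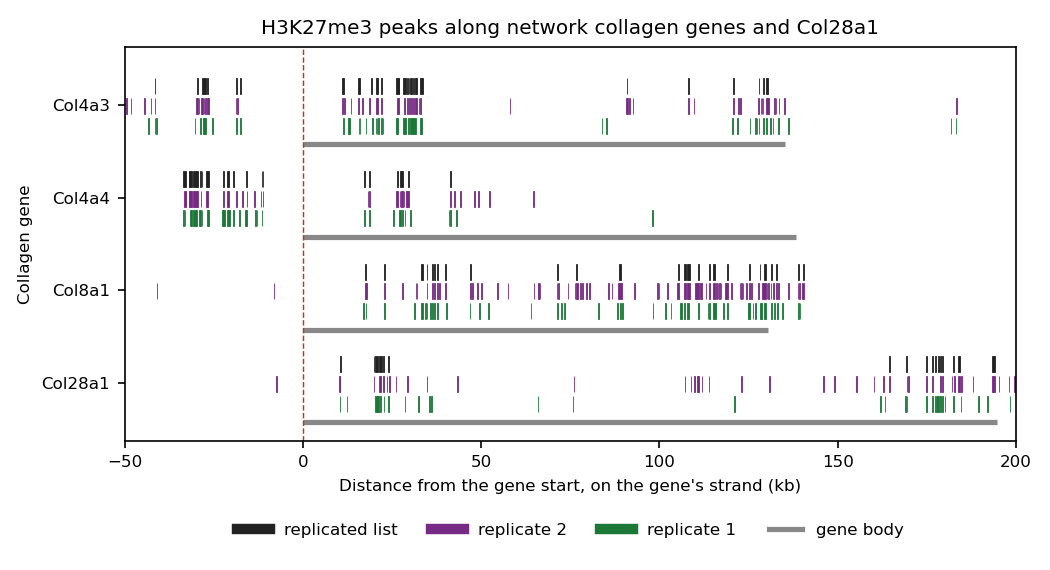
Peaks of the 2 replicates and the replicated list (coloured ticks) along Col4a3, Col4a4, Col8a1 and Col28a1 (rows). The x axis is the distance from the gene start in kb on the gene's strand, and the grey line is the gene body. The start of each of the 4 genes is bare, and the first replicated peak inside lies 10983 bp into Col4a3 and 17237 bp into Col4a4.

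The strongest body peaks by the authors' −log10 p lay in Col16a1, Col4a3, Col28a1 and Col4a4. They are shown for Col16a1, Col28a1 and Col4a4, to let the composition of such a peak be read directly. The Col4a3 peak, at a −log10 p of 7.67, is left out because the RefSeq promoter table held no entry for that gene. The Col16a1 peak spans chr4:130093298-130093914 and the 300 bases at chr4:130093503-130093802 (plus strand) are printed. The rest of that peak partly overlaps an exon of a processed transcript of the gene. The Col28a1 peak at chr6:8169737-8169995 and the Col4a4 peak at chr1:82560120-82560342 are given whole, on the minus strand, and lie in introns. All are GRCm38.p6 sequence, 5′ to 3′, with CG dinucleotides in capitals.
Col16a1: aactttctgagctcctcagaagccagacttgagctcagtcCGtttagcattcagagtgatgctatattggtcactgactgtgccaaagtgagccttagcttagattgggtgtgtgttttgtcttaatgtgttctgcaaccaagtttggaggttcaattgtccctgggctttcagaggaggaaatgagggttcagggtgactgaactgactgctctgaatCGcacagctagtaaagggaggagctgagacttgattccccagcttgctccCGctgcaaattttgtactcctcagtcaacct
Col28a1: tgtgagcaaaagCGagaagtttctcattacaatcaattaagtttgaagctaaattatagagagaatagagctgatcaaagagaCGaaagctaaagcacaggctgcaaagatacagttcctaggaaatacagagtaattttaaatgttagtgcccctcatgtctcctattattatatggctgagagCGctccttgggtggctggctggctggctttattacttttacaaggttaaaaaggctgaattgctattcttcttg
Col4a4: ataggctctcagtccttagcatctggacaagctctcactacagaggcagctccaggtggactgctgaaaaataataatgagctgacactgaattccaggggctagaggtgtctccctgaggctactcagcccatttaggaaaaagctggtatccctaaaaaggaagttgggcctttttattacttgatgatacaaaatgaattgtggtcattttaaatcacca
The peak in Col16a1 had a −log10 p of 8.17, and those in Col28a1 and Col4a4 each had 7.17. The printed stretches held 3, 3 and 0 CG dinucleotides, fewer than the Col1a2 and Col5a3 promoter stretches above held, and their G or C content was 47.7%, 38.6% and 43.5%.

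Over all 106 replicated peaks in collagen bodies, G or C made up 41.2% of bases and there were 8.45 CG dinucleotides per kb. The bodies of the 13 genes that hold them had 43.9% and 9.01 per kb. Repeats, soft-masked in the reference, made up 15.8% of the peak bases and 24.9% of the bodies. Of the 106 peaks, 18.9% touched an exon, and exons made up 9.45% of covered bases and 6.49% of the bodies. A −log10 q of 2 was reached by 12 peaks (11.3%, beside 10.9% of all replicated peaks), which lay in Col4a3, Col4a4, Col8a1, Col16a1 and Col28a1.

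Col1a2 had the largest covered share of any collagen body with no limit on q. It was 11.2% in replicate 1, 15.5% in replicate 2 and 10.9% in the replicated list, in 12 peaks, above 98.1% of all genes. Of 10 equal bins along the gene, bin 6 was the densest, at 44.0%. None of its body peaks reached a −log10 q of 2, a limit at which Col8a1 kept 1.33%, Col16a1 1.20% and Col4a3 1.19%. Col5a3 had 4.53%, 6.69% and 3.68%. In the replicated list, Col1a2 was covered in its body, and also to 7.19% upstream and 20.6% in the 50 kb after its end. Col1a1 was covered outside its body only, although replicate 2 covered 2.30% of that body. Col5a1 had 0.632%, 1.12% and 0.184%.

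FACIT collagens had 2 of 9 genes marked, beside 11.5% of all genes and 18.7% of all genes of 50 to 100 kb. The median length of the FACIT genes was 75075 bp. Col9a2, which encodes a chain of the type IX collagen of cartilage fibrils, had 5.0% in replicate 1, 5.20% in replicate 2 and 3.91% in the replicated list. Its partners Col9a1 and Col9a3 had no replicated peak in the body. Col16a1, whose product lies along small fibrils, had 3.62%, 9.74% and 3.44%, with replicate 2 far above replicate 1. Among multiplexins, whose C-terminal fragments act on vessel growth, Col18a1 had 1.69%, 2.76% and 0.609% and Col15a1 had 1.37% in replicate 2 and 0 in replicate 1. Of 4 transmembrane collagens, Col23a1 was marked, at 0.249%, beside 11.5% of all genes marked and 24.0% of those of 200 kb or more.

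The 6 genes of the beaded filament collagen of type VI, Col6a1 to Col6a6, held no replicated body peak, beside 11.5% of all genes with one. Replicate 1 had none in these 6 genes either, and replicate 2 had one in Col6a2 and in Col6a4. Col7a1, the collagen of the anchoring fibrils of skin, had 0.447% in replicate 2 and 0 in the other lists named here.

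**Figure D4:**
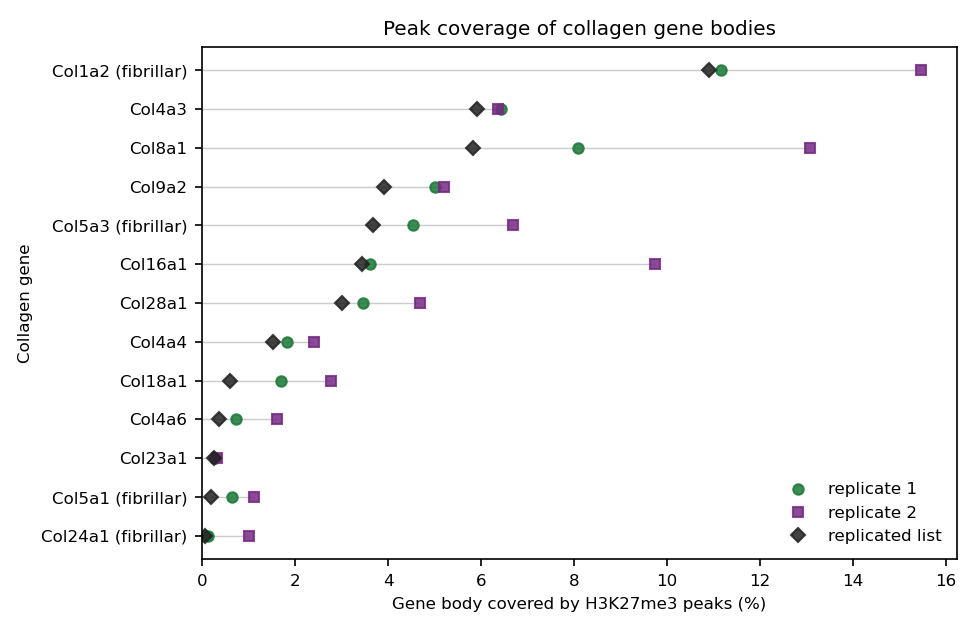
Share of the gene body covered by peaks (x axis, %) in replicate 1, replicate 2 and the replicated list for the 13 collagen genes with a replicated body peak (rows). Col1a2 is highest in all 3, and replicate 2 lies above replicate 1 in 12 of the 13 genes.

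Fibrillar and other collagens did not differ clearly in their bodies. Replicated peaks covered 0.584% of the summed fibrillar bodies and 0.659% of those of the others, and 36.4% of fibrillar and 27.3% of other genes were marked. The order by bases turned in replicate 2, at 1.4% and 1.38%, and the order by genes turned in the pooled list, at 36.4% and 45.5%. The upstream difference kept its sign in each list. Without Col1a2 the fibrillar bodies were covered to 0.208%, with 0.361% in replicate 1 and 0.888% in replicate 2.

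Between the replicates, body coverage over the 44 genes was related with a Spearman rho of 0.811 and a Pearson r of 0.953. Both libraries share the cell line and 1 control, many genes are at 0, and genes are not replicates. At the level of single bases the lists shared less. Of the bases covered in collagen bodies in either replicate, 12.5% were covered in both, beside 16.3% over all genes. These shared bases made up 29.2% of those of replicate 1 and 17.9% of those of replicate 2.

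The proteins that build, bind and degrade collagen were read in the same way, from 57 genes of a list made for this report. Of these, 2 had a replicated start peak and 16 (28.1%) a replicated body peak, beside 3.0% and 11.5% of all genes. These genes are longer than most, with a median of 25449 bp beside 17433 bp over all genes. Of all genes of 20 to 50 kb, 13.3% had a replicated body peak. Both start peaks were in small proteoglycans that bind fibrils, a class of 7. Fmod, which encodes fibromodulin, had 177 bp of its start window covered in replicate 1, 488 bp in replicate 2 and 338 bp in the replicated list. Prelp had 218, 502 and 177 bp. Their bodies were covered to 9.62% and 19.1%.

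Among 33 processing enzymes and chaperones, 6 had a replicated body peak and none a start peak, beside 11.5% and 3.0% of all genes. Colgalt2, a galactosyltransferase that puts sugar on collagen hydroxylysine, had 13.4% of its body covered in replicate 1, 15.0% in replicate 2 and 11.3% in the replicated list, 12522 bp in all. Loxl1, a lysyl oxidase-like enzyme of matrix crosslinking, had 17.9%, 24.7% and 23.4%. The remaining genes were P3h3, Fkbp10, P4ha3 and Plod2.

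Of 10 receptors 6 had a body peak, namely Ddr2, Gp6, Itga1, Itga11, Lair1 and Mrc2, and none a start peak. The 10 receptors had a median length of 59150 bp, and 18.7% of all genes of 50 to 100 kb had a replicated body peak. Mrc2, the endocytic collagen receptor, had 6.04%, 11.1% and 5.68%. Of 7 degrading enzymes the collagenases Mmp8 and Mmp13 had a body peak, at 2.59% and 1.68%, and none had a start peak. Over all genes, 11.5% had a body peak and 3.0% a start peak.

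Col4a3bp had no covered base in its start window, its body or the 50 kb on either side in the 4 lists. Its nearest replicated peak was 242086 bp from its start.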

How the data were processed

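H3K27me3 peaks of 2 MEL replicates were used. Per the deposited text descriptions, the authors called each replicate's peaks on its own mm10 alignments against 1 shared control, called the pooled list on both, and derived the replicated list from these. Not given in the sources used here are aligner, caller and the rule for keeping peaks. The deposited signal value is a score of unstated definition and was used only to rank peaks. The deposited −log10 p and −log10 q values are the authors' own. Depth is unknown, because peaks carry no read counts.

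Genes came from GENCODE mouse release 21 (GRCm38, the build mm10 names), with the start at the outermost 5′ end. Where a symbol occurred repeatedly, its longest gene was kept. Covered bases were taken from the union of peaks, and a gene was marked where at least 1 bp overlapped. No chance test was run, and counts are described beside those of all genes. The coverage code was tested on simulated intervals. RefSeq sequences were read from the reference and the promoter table equalled the genome. Python 3.11.15 with numpy 2.4.6, pandas 2.3.3 and matplotlib 3.10.9 was used.

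The members, classes and gene lists were chosen with earlier results of these data known. Named genes are all members with a start peak in any list, the 10 with the largest covered share, the 5 with the most covered bases, the fibrillar genes, and pathway genes with a start peak or the 3 most covered bodies, and the rest are named within counts. The pathway list held 58 symbols, of which Mmp1a had no match, and of the erythroid markers Ahsp had none. The mm9 list was not analysed here.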

Additional observations from a re-analysis of the deposited data

How the results depend on the processing

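Alternatives were each replicate's own list, the pooled list, stricter thresholds, joined peaks and other start windows, and 2 were added after the data were seen (RefSeq starts and the measure of the 50 kb upstream). No paired analysis was possible because the series holds 1 group and its results come from no test. The causes of the shifts below were not tested, beyond that a stricter threshold leaves fewer peaks.

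The count of 2 genes with a start peak fell to 0 at a −log10 q of 2 (0.589% of all genes) and with 500 bp covered (0.831%). It fell to 1 in the upper 50% by signal value (1.94% of all genes). It also fell to 1 with 50% of a peak inside and with RefSeq starts, where the share over all genes was not measured. It rose to 3 in a window of 2.5 kb on each side (Col2a1 added, 5.97% of all genes) and with any protein-coding transcript start (Col4a3 added, 3.87%). It was 2 without either replicate. The count of 13 marked bodies was 5 at a −log10 q of 2 (3.35% of all genes) and 11 in the upper 50% by signal value (8.7%). It ran from 21 to 28 with 1 replicate left out (16.4% and 20.4% of all genes). The covered share of 0.644% was 1.04% in the pooled list, 0.0883% at a −log10 q of 2, 1.60% with peaks joined within 3 kb, and from 0.852% to 1.39% with 1 replicate left out.

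The difference in covered share between fibrillar and other bodies, -0.0752 points, was -0.364 in the pooled list, -0.244 in the upper 50% by signal and -0.505 with joined peaks, and ran from -0.138 to 0.0163 with 1 replicate left out. The difference in marked bodies, 9.09 points, was -9.09 in the pooled list and in the upper 50%, -15.2 at a −log10 q of 2, and ran from 0 to 9.09 with 1 replicate left out. The upstream difference of 6.45 points was 2.24 at a −log10 q of 2, 3.57 in the upper 50%, 4.43 outside chromosome 11, and ran from 5.69 to 6.41 with 1 replicate left out. Of the 13 marked genes, 8 had no body peak at a −log10 q of 2 (Col1a2, Col4a6, Col5a1, Col5a3, Col9a2, Col18a1, Col23a1 and Col24a1) and 2 had none in the upper 50% by signal (Col5a1 and Col5a3).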
